A study of Homo sapiens with 19 samples.

Results

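The comparison of vit C-treated with untreated (UT) macrophages at 96 h used 5 of the 19 arrays of the series, 3 of UT cells (THP-1_UT_96h) and 2 of vit C-treated cells (THP-1_vitC_96h). Of the 50238 probes measured, 34554 were kept because the scanner software marked them well above background throughout the UT group, the vit C group or both. THP-1, a human line from a monocytic leukaemia, grows in suspension, and phorbol myristate acetate (PMA) makes the cells adhere and resemble macrophages. Cells of both groups had PMA at 30 nM over 16 to 18 h and then 2 to 3 h without it. Vit C at 0.1 mM was then added to 1 group and not to the other, and RNA was taken 96 h later. The cells are all of this leukaemia line, with no infection and no second stimulus, and vit C was tested at this dose alone. Samples of lower RNA integrity were not hybridized, per the methods.

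Vit C (ascorbate) is an antioxidant and keeps the iron of many dioxygenases in the reduced state that they need. These enzymes hydroxylate collagen and the hypoxia-inducible factors and oxidize methyl groups on DNA and histones. Macrophages take up vit C from the medium, and in these cells the genes of interest are those for receptors that bind microbes and antibodies, for antigen presentation, for chemokines and cytokines, and for the handling of iron and lipids.

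Levels are given as normalized log2 signal, the log2 of the array's processed signal minus the 75th percentile of that array, so that 0 is the level of a probe at the 75th percentile. A log2 fold change is the mean of the vit C-treated arrays minus the mean of the UT arrays, with the standard error (SE) from a limma fit to all 19 arrays. A differentially regulated gene (DRG) had q, the p adjusted by Benjamini and Hochberg, no higher than 0.05 and a log2 fold change no smaller than 1 in size. A gene is represented by its brightest kept probe, and levels are compared between arrays, not between genes. The labels do not say that the arrays came from separate experiments, so q measures the spread between these samples. In RNA from whole cultures, fewer cells of a kind and less RNA per cell cannot be told apart.

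The 2 vit C-treated arrays were alone on a slide whose scan entry differed from those of the UT arrays. The scan entry of UT replicate 1 also differed from that of UT replicates 2 and 3. UT replicate 1 shared a slide with 7 other UT arrays and UT replicates 2 and 3 shared one with 6 vit C-treated arrays of earlier time points. Treatment therefore cannot be told apart from slide or scan in this comparison. Both vit C-treated arrays were also brighter, with a 75th percentile of 788 and 903 signal units against 378, 448 and 626 on the UT arrays, and 69.8% and 72.8% of their probes were well above background against 60.0% to 64.8%. UT replicate 3 stood apart from its group. Across the kept probes its Pearson's r was 0.945 and 0.951 with the other UT arrays and 0.962 and 0.967 with the vit C-treated arrays, while UT replicates 1 and 2 had 0.978 and the vit C pair 0.994.

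Macrophage markers checked the label of the cells. Of 21 monocyte and macrophage markers 20 had a kept probe, and the exception was MRC1, the mannose receptor. The mean linear level of the list, in units of each array's 75th percentile, was 43.1 to 46.3 on the UT arrays and 43.6 to 47.8 on the vit C-treated arrays. CSF1R, the receptor for macrophage colony-stimulating factor, had normalized log2 signals of 8.03, 8.13 and 7.96 in UT cells and 8.01 and 7.92 in vit C-treated cells, and CD14 differed by 0.27 (limma q = 0.575). Lists of other cell types were each compared between arrays. Fibroblast markers had a mean linear level of 0.996 to 1.24 in UT and 0.961 to 1.04 in vit C-treated cells, with 13 of 17 kept and COL1A2, COL3A1, COL5A1 and PRRX1 not well above background. Epithelial markers were at 0.366 to 0.790 and 0.612 to 0.615, with EPCAM and CDH1 not well above background. T and NK cell markers were at 0.401 to 0.425 and 0.467 to 0.477, with CD3D, CD3G and LCK not well above background, and B cell markers at 0.348 to 0.732 and 0.304 to 0.353, with MS4A1 not well above background.

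After 96 h of vit C, 522 genes were higher and 388 lower among 19632 genes tested, which is 2.66% and 1.98% of them and 4.64% in all. Counts of DRGs in the gene lists below are to be read against these shares. The median log2 fold change of all genes was -0.04. Another 2928 gene names were left out because their kept probes went in opposite directions. The 3 UT arrays and the 2 vit C-treated arrays did not overlap in any of the 910 DRGs, and they did not overlap in 6463 of the 19632 genes tested. Where the text below says that the groups of a DRG lay apart, this therefore adds nothing to its call. On genes well above background on all 5 arrays, 338 were higher and 353 lower. Among the higher DRGs, 117 were genes that no UT array had well above background, and 21 lower DRGs had no vit C-treated array well above background. Without UT replicate 3 the counts were 836 and 831. They were 103 and 161 without vit C replicate 1, and 166 and 179 without vit C replicate 2. Called in each of the 5 fits with 1 array left out were 84 higher and 130 lower genes. All calls rest on the spread pooled over the 19 arrays: limma on the 5 arrays of 96 h alone called 0 genes, with 747 higher and 458 lower past the fold threshold at an unadjusted p, and the methods' t-test, run here on the probes kept here, called 0, with 448 and 369 at an unadjusted p.

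**Figure D1:**
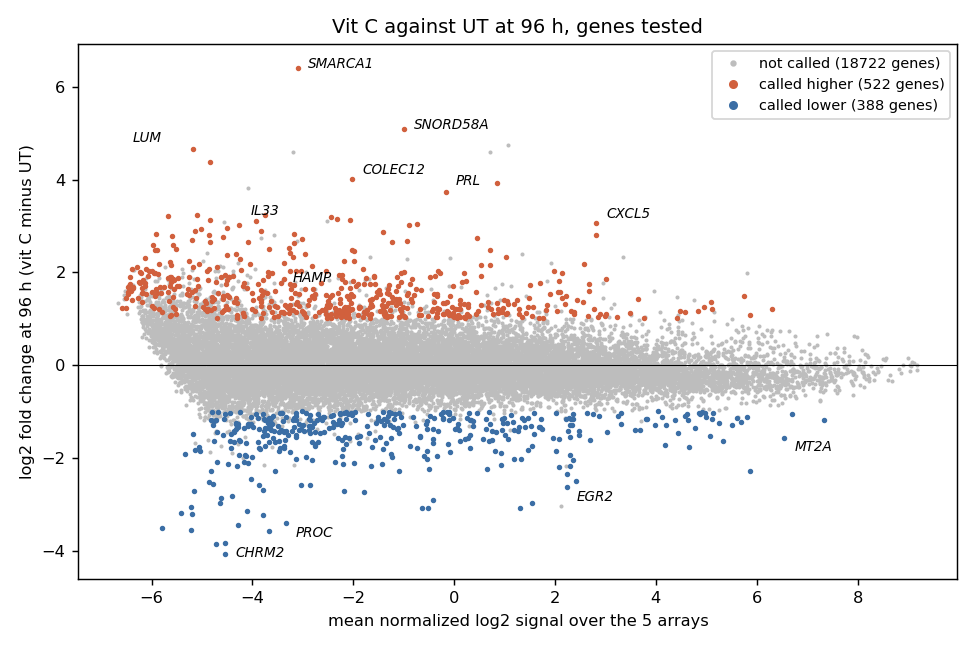
Log2 fold change at 96 h (vit C minus UT) against the mean normalized log2 signal over the 5 arrays, 1 point per gene tested, with the 522 higher and 388 lower DRGs coloured and genes of the text named. The DRGs that rose include many dim genes at the left, and among the brightest genes MT2A lies below 0.

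The split between rises and falls depended on the background correction, the scaling and the filter. Of the DRGs 57.4% were higher, against 38.0% with normexp background correction and 64.7% when the percentile was taken over probes well above background on all arrays. When dim probes were kept, which gave 26337 genes to test, it was 22.2%. Relative to the scaling used here the median over the genes tested moved by -0.23 with normexp, to -0.26 (19939 genes), and by 0.11 with that percentile, to 0.07 (19734 genes), and list medians under those settings are to be read against these shifts.

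COLEC12, a scavenger receptor with a lectin domain that binds microbial sugars and modified lipoproteins, had the second largest rise among DRGs with a current RefSeq symbol that were well above background on all 5 arrays. Its normalized log2 signals were -4.15, -3.86 and -2.88 in UT cells and 0.39 and 0.37 in vit C-treated cells, a log2 fold change of 4.01 ± 0.39 (SE, limma q = 8.63e-05). Both vit C-treated arrays lay far above the highest UT array, which was replicate 3. STAB1, stabilin-1, another scavenger receptor of macrophages, went from -3.57, -2.74 and -4.82 to -0.47 and -0.57 (3.19 ± 0.43, q = 0.000914), with UT replicate 3 the lowest array. Its second probe changed by 1.02. SIGLEC7, an inhibitory receptor for sialic acid, went from -2.11, -1.87 and -2.31 to 0.97 and 0.85 (3.01 ± 0.21, q = 5.82e-06), with little spread within either group. IL33, a cytokine of the interleukin-1 family kept in the nucleus, was at -4.23, -3.22 and -3.32 in UT cells and at -0.33 and -0.56 in vit C-treated cells (3.15 ± 0.37, q = 0.000264). CXCL5, a chemokine that draws neutrophils, was at 0.90, 1.51 and 2.36 and at 4.63 and 4.68 (3.06 ± 0.32, q = 0.00012).

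Other leading rises were of secreted and junction proteins. PRL, the hormone prolactin, was at -1.91, -1.94 and -1.14 in UT and at 2.09 and 2.04 in vit C-treated cells, a log2 fold change of 3.73 ± 0.38 (limma q = 0.000116). GJB2, the gap junction protein connexin 26, went from 1.08, 1.49 and 2.53 to 4.49 and 4.51, a change of 2.80 (q = 0.000229). In both genes UT replicate 3 was the UT array closest to the treated arrays, and the groups stayed apart. LBH rose by 3.05 (q = 6.92e-05) and FGFBP2 by 2.74 (q = 0.000113). FCGR3B and C1QB, an antibody receptor and a complement chain, rose by 3.13 and 2.66 and are described with their families below. The largest rise among these genes, of the small nucleolar RNA SNORD58A, came from 1 array: its values were -3.46, -2.76 and -2.87 in UT cells and -2.35 and 6.48 in vit C-treated cells, and its call (5.10, q = 0.0489) held in 1 of 5 fits with an array left out.

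**Figure D2:**
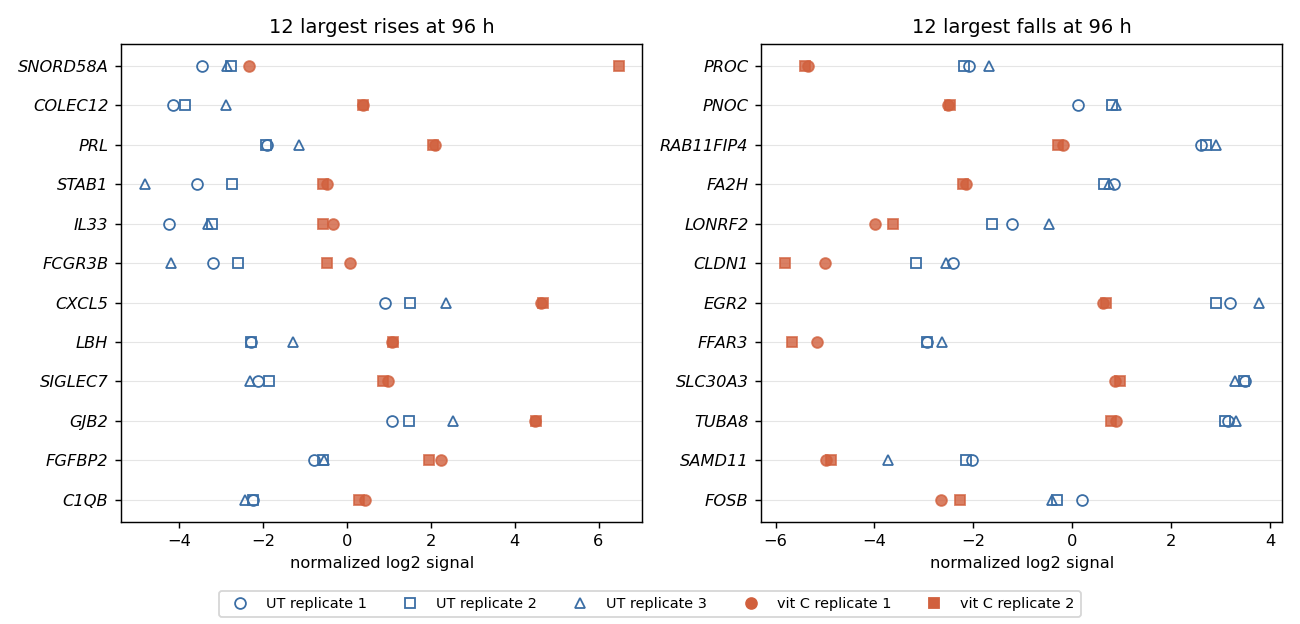
Normalized log2 signal on each array at 96 h for the 12 DRGs with the largest rises and the 12 with the largest falls, among genes with a current RefSeq symbol well above background on all 5 arrays; each point is 1 array. As in every DRG, the vit C-treated arrays lie apart from the UT arrays. They also lie together, except for SNORD58A, where 1 of them is at -2.35 and the other at 6.48.

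Of the falls chosen the same way, the steepest was PROC, protein C, the zymogen of an anticoagulant protease. It went from -2.08, -2.18 and -1.68 in UT to -5.35 and -5.42 in vit C-treated cells, a log2 fold change of -3.40 ± 0.21 (limma q = 1.3e-06). PNOC, the precursor of the neuropeptide nociceptin, went from 0.11, 0.80 and 0.89 to -2.51 and -2.47 (-3.09, q = 1.78e-05). RAB11FIP4, an effector of Rab11 in endosome recycling, was at 2.60, 2.70 and 2.91 and at -0.20 and -0.29 (-2.98, q = 1.3e-06), and its 3 probes changed by between -3.36 and -2.86. The treated arrays lay close together and far below every UT array in all 3 genes. FA2H, which adds a hydroxyl group to fatty acids, fell from 0.84, 0.64 and 0.74 to -2.15 and -2.20 (-2.92, q = 1.3e-06). SLC30A3, a transporter that moves zinc into vesicles, fell from 3.49, 3.48 and 3.29 to 0.87 and 0.97 (-2.50, q = 2.05e-05), and TUBA8, an alpha-tubulin, from 3.14, 3.09 and 3.30 to 0.88 and 0.79 (-2.34, q = 1.59e-05). CLDN1, a tight junction protein, fell by 2.69 on the log2 scale (q = 0.000211), LONRF2 by 2.71 (q = 0.000233) and SAMD11 by 2.29 (q = 0.00985). These calls held in all 5 fits with 1 array left out, except that of SAMD11, which was lost without either vit C-treated array.

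Some of the widest gaps involved genes not well above background on any array of 1 group, for which only a lower bound can be given. LUM, lumican, a keratan sulfate proteoglycan of the matrix, was at -6.78, -6.94 and -7.42 on the UT arrays, none of them well above background, and at -2.37 and -2.41 in vit C-treated cells, at least 6.17-fold higher (limma q = 1.49e-06). CSF3, granulocyte colony-stimulating factor, was at -6.76, -4.98 and -7.44 and at -3.0 and -3.29, at least 3.66-fold higher (q = 0.00171). With normexp background correction neither was called. MGP, matrix Gla protein, an inhibitor of calcification, was at -3.33, -3.34 and -2.89 in UT cells and below background at -7.19 and -6.91 in vit C-treated cells, at least 6.54-fold lower (q = 1.59e-05). CHRM2, a muscarinic acetylcholine receptor, was at least 7.41-fold lower (q = 5.49e-06), DIRAS2, a small GTPase, at least 2.83-fold lower (q = 1.35e-05), and ZP4, a protein of the egg coat, at least 7.91-fold lower (q = 0.00575, not called without vit C replicate 2). For 2 other genes a single array carried the difference. SMARCA1, a chromatin remodelling ATPase, was at 5.93 and -4.45 on the 2 vit C-treated arrays against -5.58, -6.23 and -5.17 in UT cells, and OR2AT4, an olfactory receptor gene, at 0.59 and -5.02 against -6.85, -6.35 and -6.55. Both calls were lost without vit C replicate 1.

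Genes of MHC class II, which present peptides to helper T cells, were split. Of 12 tested, 5 were higher and 1 lower, against 4.64% called over all genes, and the median log2 fold change was 0.93. HLA-DMB, which helps to load peptides, was at -0.75, -0.45 and -0.10 in UT and at 1.12 and 0.81 in vit C-treated cells, a log2 fold change of 1.40 ± 0.22 (limma q = 0.00258). HLA-DRB5, a beta chain, was at 1.76, 1.73 and 1.20 and at 3.16 and 2.85 (1.44, q = 0.00436), and HLA-DQB1 at -0.67, -0.57 and -1.26 and at 0.49 and 0.31 (1.23, q = 0.00853). UT replicate 3 was the lowest array for both beta chains. HLA-DRB3 (1.14, q = 0.0399) and HLA-DRB4 (1.09, q = 0.0399) were called with UT replicate 3 and not without it, and without it 2 genes of the list were higher and 1 lower. Without UT replicate 1 there were 3 higher and 1 lower, without vit C replicate 2 there were 2 and 1, and without vit C replicate 1 no gene of the list was called. HLA-DQB1 was left out of the counts without UT replicate 1, UT replicate 3 or vit C replicate 1, where its probes went in opposite directions. The probes of the HLA-DRB genes share at most 45.5% of their bases in alignment, and the DRB genes are carried by different haplotypes. The alignment compares the probes and not the transcripts, so it cannot show that the signals are separate. How far each probe reads its own gene was not tested. HLA-DRB1 itself had a log2 fold change of 1.04 and was not called (q = 0.0863).

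CIITA, the coactivator that switches on MHC class II genes, went the other way, from -3.51, -3.85 and -4.01 in UT to -5.34 and -4.87 in vit C-treated cells, a log2 fold change of -1.32 ± 0.24 (limma q = 0.0065, not called without vit C replicate 1 or with normexp). The arrays of the 2 groups did not overlap. CD74, the invariant chain, changed by -0.23 (q = 0.71), HLA-DOA by -0.04 (q = 0.966) and HLA-DMA by 0.83 (q = 0.0388, under the fold threshold). With normexp background correction the median of the list was -0.22, with 4 of its genes higher and 0 lower, and HLA-DQB1 left out because its probes opposed each other. None of 13 genes of MHC class I and peptide loading was called (median -0.05).

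The CD1 and co-stimulation list covers lipid-presenting CD1 molecules and surface proteins that T cells engage. Of 12 tested, 3 were higher and 1 lower (median 0.76, or -0.24 with normexp), 33.3% called against 4.64% over all genes. CD1C was at -1.49, -1.21 and -0.76 in UT and at 0.89 and 0.65 in vit C-treated cells (log2 fold change 1.92 ± 0.23, limma q = 0.000354). CD1A was at -0.62, -0.65 and -0.17 and at 0.80 and 0.47 (1.12, q = 0.00699), and CD48, a ligand of the receptor 2B4, at -0.03, -0.51 and 0.12 and at 1.99 and 2.03 (2.15, q = 0.00438). Each of these 3 genes was higher on both treated arrays than on any UT array, as every higher DRG was. The calls of CD1A and CD48 were lost without vit C replicate 1, which left 1 higher and 1 lower, while without UT replicate 3 the list had 5 higher and 1 lower. With normexp it had 2 and 1. CD83, a marker of mature dendritic cells, fell from 3.11, 2.73 and 2.91 to 1.42 and 1.30 (-1.56, q = 0.000231). CD1B, CD1D and CD1E had log2 fold changes of 0.95, 0.57 and 0.98 and were not called, nor were CD80 (-0.20), CD86 (1.16) and CD40 (-0.36).

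Receptors for the constant part of antibodies and complement proteins bear on how macrophages take up coated particles. Of 25 genes tested in the Fc and complement list 5 were higher and 0 lower, with a median log2 fold change of 0.25. That is 20% called, against 4.64% over all genes. FCGR3A, CD16a, was at 1.18, 1.00 and 1.32 in UT and at 3.34 and 3.03 in vit C-treated cells (2.02 ± 0.18, limma q = 3.6e-05). FCGR2B, the inhibitory receptor of the family, was at -0.22, -0.70 and -1.11 and at 1.00 and 0.61 (1.48, q = 0.00696), and FCGR2A, an activating one, at -0.29, -0.94 and -0.13 and at 0.64 and 0.56 (1.05, q = 0.0178). The 3 receptors were higher on both treated arrays, as every higher DRG was. FCGR3B, which stands outside this list, was at -3.19, -2.59 and -4.19 and at 0.08 and -0.47 (3.13, q = 0.00679), and its probe shares 39.0% of its bases with that of FCGR3A. This compares the probes and not the transcripts, so it cannot show that the signals are separate. How far either probe reads its own gene was not tested. C1QB, a chain of the first complement component, went from -2.24, -2.23 and -2.44 to 0.43 and 0.28 (2.66, q = 0.00259). The other chains, C1QA (1.01, q = 0.0996) and C1QC (1.31, q = 0.0517), were not called. VSIG4, a complement receptor of tissue macrophages, was a bright gene that went from 4.61, 4.30 and 4.43 to 5.80 and 5.60 (1.25, q = 0.000802). The calls of FCGR3B and FCGR2B were lost without vit C replicate 1, and that of FCGR2A also without UT replicate 2 or vit C replicate 2. The list had 3 higher without vit C replicate 1. ITGAM and ITGAX, the alpha chains of complement receptors 3 and 4, had log2 fold changes of -0.92 (q = 0.00584, under the fold threshold) and -0.62 (q = 0.0673) and were not called.

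Among pattern recognition receptors, 4 of 26 tested were higher and 1 lower (median 0.00, or -0.19 with normexp, which left 2 and 1). The counts were 1 and 0 without vit C replicate 1, 2 and 0 without vit C replicate 2, 4 and 0 without UT replicate 1 and 3 and 0 without UT replicate 2. On members well above background on all 5 arrays 3 were higher and 1 lower. Of all 26 tested 19.2% were called, against 4.64% over all genes. COLEC12 headed the list. CLEC5A, a lectin receptor that signals through DAP12, was at -4.43, -4.11 and -4.24 in UT and at -1.89 and -2.23 in vit C-treated cells (log2 fold change 2.19, limma q = 0.00474), and NOD2, the sensor of bacterial muramyl dipeptide, at -0.16, 0.18 and 0.95 and at 1.67 and 1.65 (1.34, q = 0.013). CLEC4D, with no UT array well above background, was called (at least 1.48-fold higher, q = 0.028), but the direction turned with normexp background correction (-0.19) and with signals under 20 raised to that floor its log2 fold change was 0.0983 (q = 0.221). NLRP1, an inflammasome sensor, fell by 1.44 on the log2 scale (q = 0.0387), a call that held in 1 of 5 fits with an array left out. Of 17 scavenger receptors and lipid uptake genes 1, STAB1, was higher and 4 were lower, namely OLR1 (-1.15, q = 0.0384), MERTK (-1.09, q = 0.0427), MSR1 (-1.07, q = 0.0299) and AXL (-1.02, q = 0.0118). MSR1 takes up modified lipoproteins, OLR1 binds oxidized ones, and MERTK and AXL are receptors through which dying cells are cleared. Without UT replicate 3 none of these 4 was called, and that list then held 1 higher and 0 lower, as it did without vit C replicate 1, and 1 of each without vit C replicate 2. With normexp it held 0 of either and its median was -0.33, against 0.13 here, and STAB1 was left out there because its probes went in opposite directions.

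Chemokines moved in both directions, with 30% of those tested called against 4.64% over all genes. Of 30 tested 5 were higher (4 on genes well above background on all 5 arrays) and 4 lower, and the median log2 fold change was 0.20 (-0.28 with normexp). These counts were 8 and 4 without UT replicate 3, 3 and 4 without UT replicate 1, 2 and 3 without vit C replicate 1 and 3 and 3 without vit C replicate 2. Of those that bind CXCR2 and draw neutrophils, CXCL1 was at 4.85, 5.25 and 5.31 in UT and at 6.77 and 6.49 in vit C-treated cells (1.49 ± 0.22, limma q = 0.00179), beside CXCL5 above. CXCL14 went from -2.23, -2.14 and -1.35 to -0.24 and -0.52 (1.53, q = 0.00281). Both treated arrays were above all UT arrays for each of these genes. The 4 that fell were CXCL13, CCL17, CCL19 and CCL5. CXCL13, which attracts B cells, went from 1.67, 1.61 and 2.11 to -0.28 and -0.44 (-2.16 ± 0.19, q = 3.88e-05), and CCL17, a ligand of CCR4, from -3.78, -3.59 and -3.53 to -5.09 and -5.38 (-1.61, q = 0.00203). CCL19, a ligand of CCR7, went from -1.29, -1.33 and -1.15 to -2.83 and -2.75 (-1.54, q = 0.000384), and CCL5 from 3.23, 3.49 and 2.45 to 1.71 and 1.54 (-1.43, q = 0.0105, not called without either treated array). Rises of PPBP and CCL18, looked at after their values were seen, were called too, each in 1 of 5 fits with an array left out.

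Of 25 cytokines and their antagonists 3 were higher and 4 lower (median -0.27), against 5 and 5 without UT replicate 3, 2 and 4 without UT replicate 1, and 2 and 2 without either vit C-treated array. With normexp 1 was higher and 2 lower. On members well above background on all 5 arrays 2 were higher and 4 lower, without CSF3. Of the 25 tested 28% were called, against 4.64% over all genes. IL1RN, the interleukin-1 receptor antagonist, went from 3.42, 3.28 and 2.78 in UT to 1.13 and 0.84 in vit C-treated cells (log2 fold change -2.18 ± 0.21, limma q = 6.97e-05). OSM, oncostatin M, went from 1.42, 1.15 and 1.60 to -0.21 and -0.23 (-1.61, q = 0.000176). LIF, of the same cytokine family, changed by -1.19 (q = 0.0118) and was lost without either treated array. IL6 itself had a log2 fold change of -0.76 (q = 0.176). Beside IL33 and CSF3, IL11 was higher, by 1.47 (q = 0.027), and its effect at 48 h had been 3.87. Among 33 cytokine and chemokine receptors 3 were higher and 1 lower (median -0.08), with 3 and 2 without UT replicate 3, 2 and 1 or 1 and 1 without vit C replicate 1 or 2, and 1 and 1 with normexp. IL1R2, a decoy receptor for interleukin-1, went from 1.30, 1.49 and 2.30 to 4.07 and 3.69 (2.19, q = 0.000284), so that at 96 h the decoy receptor was higher and the antagonist IL1RN lower. IL2RG, the common gamma chain, rose by 1.64 (q = 0.009) and IL6ST, the signal chain gp130, by 1.30 (q = 0.00584). CX3CR1, the fractalkine receptor, fell from 1.84, 2.00 and 2.89 to 0.63 and 0.38 (-1.75, q = 0.00277).

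All 14 S100 genes tested except 1 had log2 fold changes above 0, with 4 called higher and 0 lower (median 0.30). That is 28.6% called, against 4.64% over all genes and 12.8% of the interferon-stimulated genes below. S100A12 was at 0.24, 0.90 and 1.29 in UT and at 2.76 and 2.32 in vit C-treated cells (1.74, limma q = 0.00474). S100A8 and S100A9, the chains of calprotectin, rose by 1.21 (q = 0.0277) and 1.42 (q = 0.046), and S100B by 1.07 (q = 0.0471). UT replicate 3 was the UT array nearest to the treated ones for each of these 4 genes, at 4.20 for S100A9 against 4.49 and 4.50 on the treated arrays. The last 3 calls held in 1 of 5 fits with an array left out, the one without UT replicate 3, and that of S100A12 was lost without vit C replicate 1, so that the list had 0 higher without vit C replicate 1 and 1 higher without any 1 of UT replicate 1, UT replicate 2 or vit C replicate 2. Of 39 interferon-stimulated genes 4 were higher and 1 lower (median 0.09): GBP5, a guanylate-binding protein, rose by 1.29 (q = 0.00584), IRF8, a myeloid transcription factor, by 1.27 (q = 0.0399), TRIM22 by 1.08 and XAF1 by 1.06, while USP18, which removes ISG15 from proteins, fell from 1.77, 1.93 and 2.45 to 0.87 and 0.60 (-1.31, q = 0.00241). The calls of IRF8, TRIM22 and XAF1 each held in 1 of 5 such fits. That list had 5 higher and 3 lower without UT replicate 3, 1 of each without UT replicate 1 or 2, and 0 and 1 without either vit C-treated array. With normexp 1 was higher and 2 were lower.

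**Figure D3:**
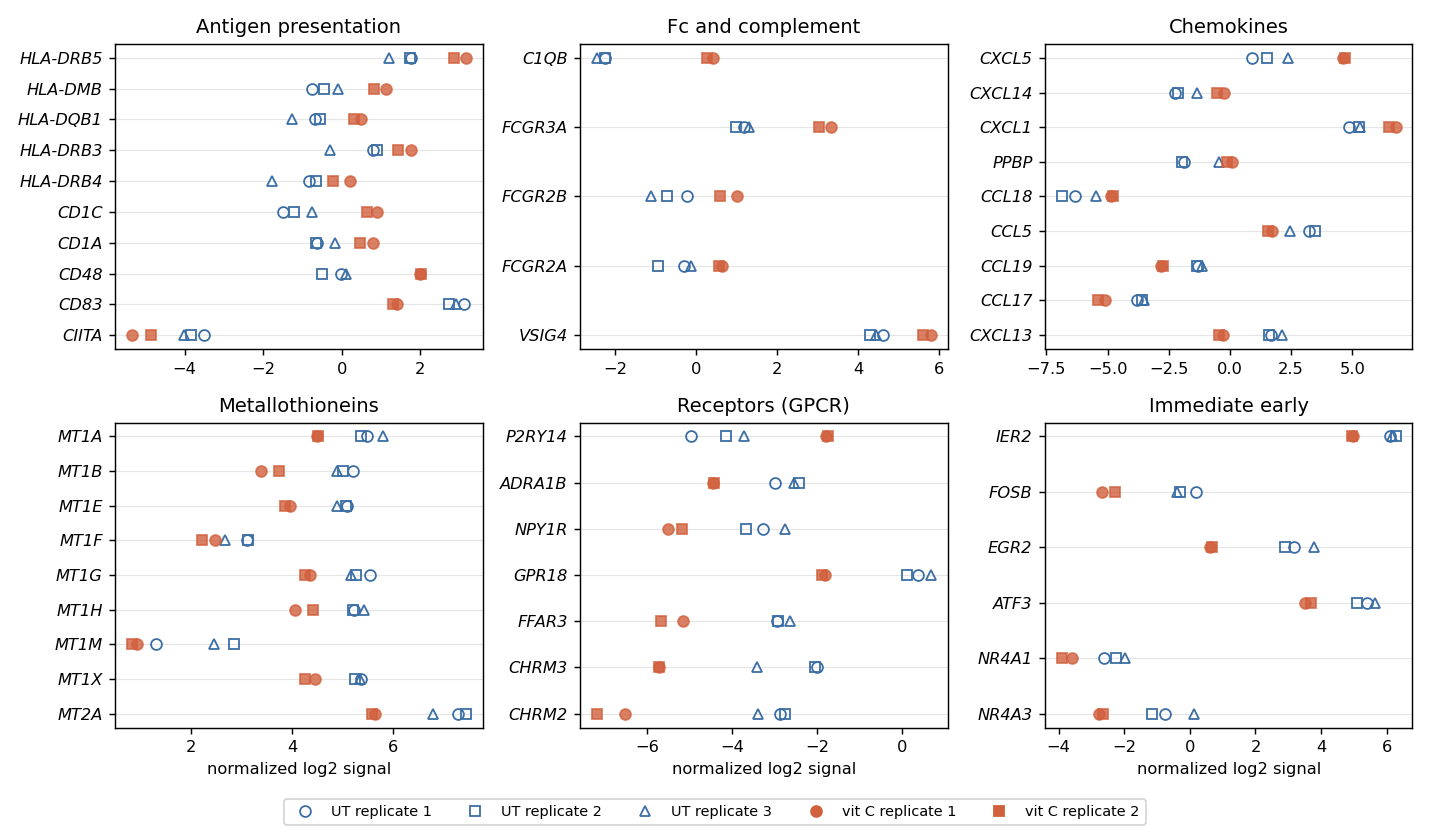
Normalized log2 signal on each array at 96 h for genes of 6 groups; each point is 1 array, open symbols UT and filled symbols vit C-treated. The Fc and complement genes (higher on the vit C-treated arrays) and the immediate early genes (lower) drawn are only DRGs of their lists, so this choice set their directions. The metallothioneins are all those tested, and their log2 fold changes are below 0. Chemokines and antigen presentation genes hold members of both kinds.

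Metallothioneins are small cysteine-rich proteins that bind zinc and copper, and their genes answer to metals through the factor MTF1. Of 9 tested at 96 h, 7 were lower and 0 higher, where over all genes 1.98% were lower. Some of their probes are alike, as given below, so these are not 9 separate measurements. MT2A, the brightest, was at 7.29, 7.44 and 6.78 in UT and at 5.63 and 5.58 in vit C-treated cells (log2 fold change -1.56 ± 0.23, limma q = 0.00158), and its 3 probes changed by between -1.56 and -1.26. MT1B was at 5.20, 5.01 and 4.89 and at 3.39 and 3.74 (-1.47, q = 0.00167). MT1M was at 1.31, 2.85 and 2.46 and at 0.93 and 0.83 (-1.33, q = 0.0341), with UT replicate 1 the UT array closest to the treated arrays. The other members of the family were looked at after their values were seen. MT1E (-1.10), MT1H (-1.05), MT1A (-1.04) and MT1G (-1.02) were called as well, while MT1X (-0.96) and MT1F (-0.63) did not reach the fold threshold. Without UT replicate 3 the calls of MT1A and MT1H were lost, that of MT1G without UT replicate 1, that of MT1M without UT replicate 2, and those of MT1A, MT1G and MT1M also without either treated array and of MT1H without vit C replicate 1. Every member kept a log2 fold change below 0 under each scaling tried, but MT1A, MT1E, MT1G and MT1H fell short of the fold threshold with normexp and with quantile normalization. The probes of MT1H and MT1X are 94.8% identical, those of MT1B and MT1G 84.4%, those of MT1E and MT1B 83.1% and those of MT1M and MT2A 53.7%. How far each probe reads its own gene was not tested.

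Because 7 of the 9 members were called lower, the 250 bases before the start of the genes that the RefSeq promoter table holds (4 of the 9, of which MT1X was not called, build GRCh38.p14, chromosome 16, plus strand) are shown, with the core of the metal response element, TGCACNC or TGCGCNC on either strand, in capitals. MT2A is at chr16:56608334-56608583, MT1B at chr16:56651636-56651885, MT1H at chr16:56669564-56669813 and MT1X at chr16:56682220-56682469. They hold 7, 3, 8 and 4 copies.
MT2A: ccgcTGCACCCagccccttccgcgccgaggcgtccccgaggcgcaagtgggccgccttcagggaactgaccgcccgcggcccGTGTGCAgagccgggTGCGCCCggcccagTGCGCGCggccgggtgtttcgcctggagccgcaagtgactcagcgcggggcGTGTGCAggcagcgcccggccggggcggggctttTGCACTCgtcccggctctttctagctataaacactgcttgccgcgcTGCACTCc
MT1B: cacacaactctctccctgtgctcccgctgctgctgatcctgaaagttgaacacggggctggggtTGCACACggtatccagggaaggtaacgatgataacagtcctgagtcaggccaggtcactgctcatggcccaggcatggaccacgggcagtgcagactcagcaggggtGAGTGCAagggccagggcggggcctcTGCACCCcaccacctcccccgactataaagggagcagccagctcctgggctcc
MT1H: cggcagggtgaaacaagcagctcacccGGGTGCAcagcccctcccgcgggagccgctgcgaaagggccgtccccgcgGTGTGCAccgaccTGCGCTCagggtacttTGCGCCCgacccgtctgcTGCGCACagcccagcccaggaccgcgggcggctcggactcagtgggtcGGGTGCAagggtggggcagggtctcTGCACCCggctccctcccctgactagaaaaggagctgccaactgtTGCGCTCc
MT1X: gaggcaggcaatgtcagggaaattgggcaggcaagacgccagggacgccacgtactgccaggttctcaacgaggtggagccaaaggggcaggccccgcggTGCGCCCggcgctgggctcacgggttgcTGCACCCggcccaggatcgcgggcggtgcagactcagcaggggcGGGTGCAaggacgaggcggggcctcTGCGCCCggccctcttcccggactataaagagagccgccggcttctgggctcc
Of 35116 RefSeq promoter windows of the same length, 24.8% held at least 1 copy of these letters, 1.58% at least 3 and 0.0313% at least 7. A match is a description of the sequence and no measure of binding.

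Metallothionein effects differed from those at the earlier time points. For MT1M the effect was 1.63, 2.24 and 2.16 in order of the earlier times and -1.33 at 96 h, and the 96 h effect minus the mean of the earlier ones was -3.34 (limma q = 0.00115). Its level in UT cells was -0.33 to -0.21 at 8 h, -0.94 to -0.69 at 24 h, 0.54 to 0.65 at 48 h and 1.31 to 2.85 at 96 h. In vit C-treated cells it was 1.07 to 2.92 from 8 to 48 h and 0.83 to 0.93 at 96 h. The UT arrays up to 48 h and UT replicate 1 of 96 h (1.31) lay on 1 slide and the other 2 UT arrays of 96 h (2.85 and 2.46) on a slide with treated arrays, and the part of the slide in this was not tested. MT2A was at 4.35 to 4.64 in UT cells at 8 h and at 6.78 to 7.44 at 96 h, and its earlier effects were -0.22, 0.68 and 0.30. Of the 9 genes, whose probes may share signal, 8 had a called difference from the earlier effects, against 2.26% of all genes, and MT1F did not (-0.72).

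Of the iron handling genes, 3 were higher, or 2 among those well above background on all 5 arrays, as CP was kept through the treated group alone. HAMP, hepcidin, the hormone that closes the iron exporter ferroportin, was at -1.92, -2.05 and -1.94 in UT and at -0.23 and -0.43 in vit C-treated cells (log2 fold change 1.64 ± 0.18, limma q = 0.000175). Its effects at 8, 24 and 48 h were -1.13, -1.03 and -1.65, so that the direction was opposite, and the difference of 2.91 was called (q = 2.86e-05). HP, haptoglobin, which binds free haemoglobin, went from -2.41, -2.52 and -2.16 to -0.43 and -0.46 (1.91, q = 0.000817). CP, ceruloplasmin, a ferroxidase, had no UT array well above background and was called (at least 1.13-fold higher, q = 0.00376), but with normexp background correction its direction turned (-0.30), and with signals under 20 raised to that floor no array rose above it. TFRC, the transferrin receptor, had a log2 fold change of -0.10 (q = 0.846), and of 0.07 after quantile normalization. With the metallothioneins, the iron and metal list had 3 genes higher and 7 lower of 27 tested (median -0.23), 3 and 3 without vit C replicate 1, 2 and 4 without vit C replicate 2, and 2 and 3 with normexp.

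**Figure D4:**
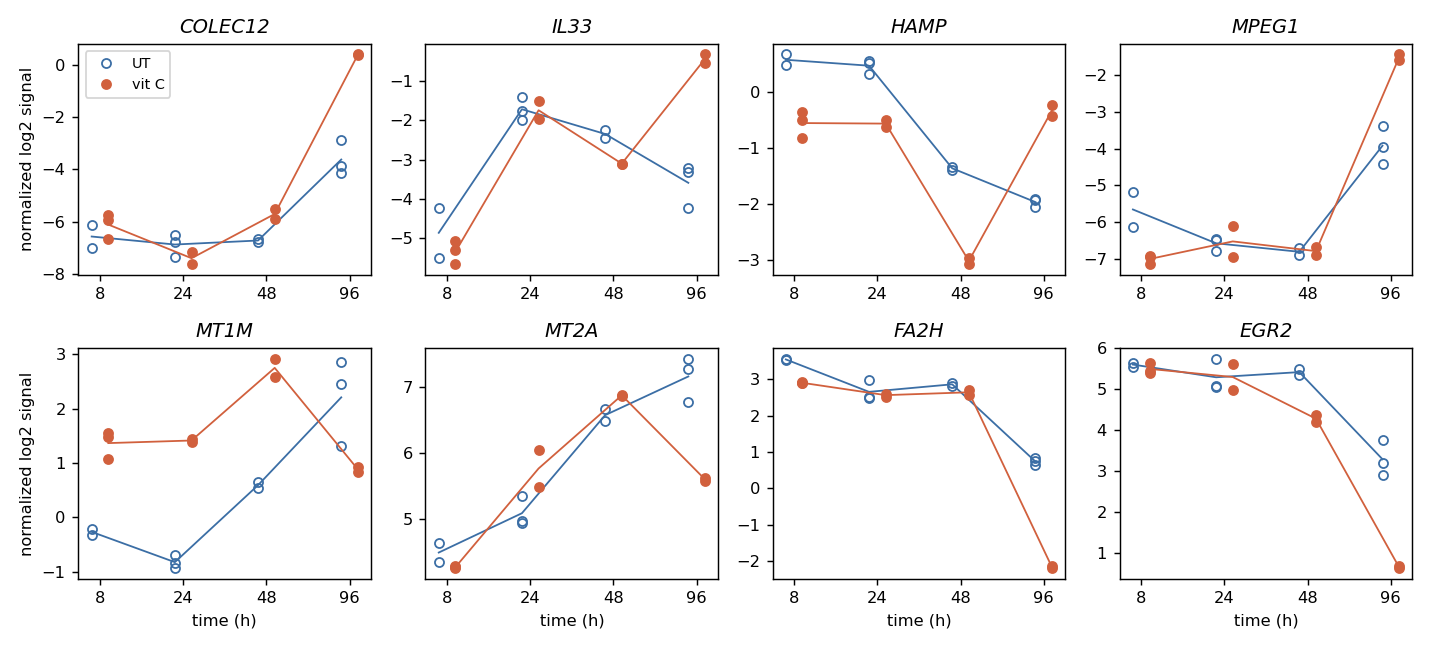
Normalized log2 signal on all 19 arrays against time (8, 24, 48 and 96 h, evenly spaced) for 8 genes whose effect at 96 h differed from the earlier effects; each point is 1 array and lines join group means. HAMP and MT1M change the order of the groups at 96 h, and COLEC12, IL33, MPEG1, FA2H and EGR2 separate most at that time.

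The AP-1 and immediate early list, of genes that cells switch on within minutes of a stimulus, together with feedback genes of NF-kappa-B, held no called rise. Of 39 tested 6 were lower (9 without UT replicate 3), and the median log2 fold change was -0.30 against -0.04 over all genes. With normexp the list median was again -0.30, but that of all genes was -0.26, and with the percentile over detected probes they were -0.13 and 0.07. EGR2, a zinc finger factor of macrophage differentiation, went from 3.19, 2.91 and 3.77 in UT to 0.63 and 0.68 in vit C-treated cells (-2.64 ± 0.28, limma q = 0.000138). FOSB, an AP-1 subunit, went from 0.19, -0.31 and -0.40 to -2.66 and -2.27 (-2.29, q = 0.00044), and ATF3, a stress-induced factor, from 5.40, 5.08 and 5.64 to 3.52 and 3.68 (-1.77, q = 0.000186). Both treated arrays lay below the lowest UT array in each case. The nuclear receptors NR4A3 (-2.13, q = 0.0012) and NR4A1 (-1.47, q = 0.0199) and the coactivator IER2 (-1.22, q = 0.00118) were lower as well, NR4A1 on 1 of its 2 probes (the other changed by -0.09). FOS had a log2 fold change of -0.45 (q = 0.573), JUN of 0.80 (q = 0.0593) and the inhibitor NFKBIA of -0.22 (q = 0.617).

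Of 54 G protein-coupled receptor and cAMP genes tested 2 were higher and 11 lower (1 and 9 of the 46 well above background on all 5 arrays), where over all genes 2.66% were higher and 1.98% lower, and the median was -0.18. There were 4 and 11 without UT replicate 3, 1 and 10 without UT replicate 1, and 1 and 8 without vit C replicate 2. GPR18, a lipid receptor, went from 0.38, 0.11 and 0.68 in UT to -1.82 and -1.88 in vit C-treated cells (log2 fold change -2.24 ± 0.25, limma q = 0.00018). FFAR3, which senses short-chain fatty acids, went from -2.95, -2.93 and -2.64 to -5.16 and -5.68 (-2.58, q = 0.000233). These treated arrays were below all UT arrays by more than the spread of either group. CHRM3, a second muscarinic receptor beside CHRM2, went from -2.0, -2.06 and -3.42 to -5.72 and -5.73, with 1 of 2 treated arrays well above background (-3.23, q = 0.000135). NPY1R, a receptor for neuropeptide Y, changed by -2.11 (q = 0.000992). P2RY14, the receptor for UDP-glucose, rose from -4.96, -4.15 and -3.73 to -1.80 and -1.74, with 2 of 3 UT arrays well above background (2.51, q = 0.00124). Of 32 calcium signalling genes 1, the scaffold protein HOMER2, was lower (-2.17, q = 0.00031) and 0 higher (median -0.32), but without UT replicate 3 that list had 2 higher and 6 lower. The 1 call is 3.12% of the calcium list, against 4.64% called over all genes.

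Of 32 collagens and matrix proteins tested 7 were higher and 1 lower, where over all genes 2.66% were higher and 1.98% lower, and the median log2 fold change was 0.33 (-0.15 with normexp, with 5 and 0 called). Only 25 of the 32 were well above background on all 5 arrays, with 6 higher and 1 lower, and members kept through the treated group alone, such as LUM, had to differ. Without vit C replicate 1 there were 4 and 0, and without UT replicate 1 there were 6 and 0. DCN, decorin, a small proteoglycan like LUM that binds collagen, went from -0.64, -0.58 and 0.35 in UT to 2.28 and 2.09 in vit C-treated cells (2.48 ± 0.38, limma q = 0.00241). VCAN, versican, went from -0.28, -1.27 and -0.26 to 1.52 and 1.23 (1.98, q = 0.000914), SPARC, a collagen-binding glycoprotein, from -1.95, -1.69 and -1.92 to 0.23 and 0.01 (1.98, q = 0.00613), and COL6A2, a chain of collagen VI, from -1.02, -0.54 and -1.87 to 0.69 and 1.09 (2.03, q = 0.00684). All 4 were above every UT array, as every higher DRG was. LAMA3, a laminin chain, fell by 1.35 on the log2 scale (q = 0.0277), and COL22A1, outside this list, by 1.66 (q = 0.0075). COL16A1 had a log2 fold change of 1.33 (q = 0.0701) and MFAP5, a microfibril protein well above background on 1 of 3 UT arrays, of 1.57 (q = 0.28), and neither was called. LUM and DCN also stand in the fibroblast list. Of its 11 genes tested 3 were higher and 1 lower (1 and 0 with normexp), or 2 and 1 on those well above background on all 5 arrays. The others were PDGFRB, a growth factor receptor (1.30, q = 0.00288), and FAP, a surface protease (-1.16, q = 0.0204, not called without UT replicate 3 or either vit C-treated array). The summed level of that list did not separate the groups, as given above, and the part of other cell types in these changes was not tested.

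Of 29 matrix proteases and inhibitors 3 were higher and 2 lower (median -0.05). ADAMTS4, an aggrecan-cleaving protease, rose by 1.86 (limma q = 0.0118), MMP2, gelatinase A, by 1.75 (q = 0.0159) and CTSK, cathepsin K, by 1.06 (q = 0.0122). MMP7, matrilysin, went from 4.39, 4.16 and 4.95 in UT to 3.26 and 3.16 in vit C-treated cells (-1.29, q = 0.00584), and TIMP1, an inhibitor of such proteases, from 5.57, 5.65 and 4.75 to 4.07 and 3.85 (-1.36, q = 0.00563). Without vit C replicate 1 the list had 0 higher and 1 lower, and without replicate 2 it had 0 of either. It had 2 and 2 without UT replicate 1 or 2. Of 26 ascorbate-dependent dioxygenases and their kin, 1 was higher and 1 lower (median 0.18), with 3 and 1 without UT replicate 3, 1 and 2 without UT replicate 2, and 0 and 1 without either vit C-treated array. TET2, listed under its older name KIAA1546, which oxidizes methylcytosine, was at -3.14, -3.34 and -4.34 and at -1.88 and -2.06 (1.64, q = 0.00663). P3H2, listed as LEPREL1, which hydroxylates proline in collagen, was at 3.70, 3.57 and 4.17 and at 2.48 and 2.60 (-1.27, q = 0.00168). The groups did not overlap for either enzyme, as in every DRG. Of the dioxygenase list 7.69% was called, against 4.64% over all genes. The call of TET2 was lost without either treated array and with normexp, and that of P3H2 held in all 5 fits with 1 array left out.

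Of 25 cholesterol efflux and lipid handling genes 4 were lower and 0 higher (median -0.13). LPL, lipoprotein lipase, went from 5.81, 5.81 and 6.31 in UT to 4.32 and 4.35 in vit C-treated cells (log2 fold change -1.64 ± 0.23, limma q = 0.00116). The apolipoproteins APOC4 (-1.29, q = 0.00471), APOC2 (-1.12, q = 0.0022) and APOC1 (-1.05, q = 0.00233), which lie next to each other in the genome, were lower too, from 7.16, 7.16 and 7.06 to 6.16 and 5.99 for APOC1. ABCA1 and ABCG1, the cholesterol exporters, had log2 fold changes of 0.18 (q = 0.732) and 0.14 (q = 0.898), and the nuclear receptors PPARG and PPARA of 0.08 (q = 0.883) and 0.68 (q = 0.267). None of 21 sterol synthesis and uptake genes was called (median 0.06). Of 13 prostaglandin and leukotriene genes 2 were higher and 1 lower (median 0.13). PTGS2, cyclooxygenase-2, rose by 1.52 (q = 0.0186) and LTA4H, which makes leukotriene B4, went from 5.52, 5.12 and 5.67 to 6.54 and 6.48 (1.07, q = 0.00762). LTC4S, which makes the cysteinyl leukotriene, fell by 1.46 on the log2 scale (q = 0.0106). Each of these 3 calls was lost without either treated array, and the list had 0 higher and 1 lower without UT replicate 2, 2 and 2 without UT replicate 3, and 1 and 1 with normexp.

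**Figure D5:**
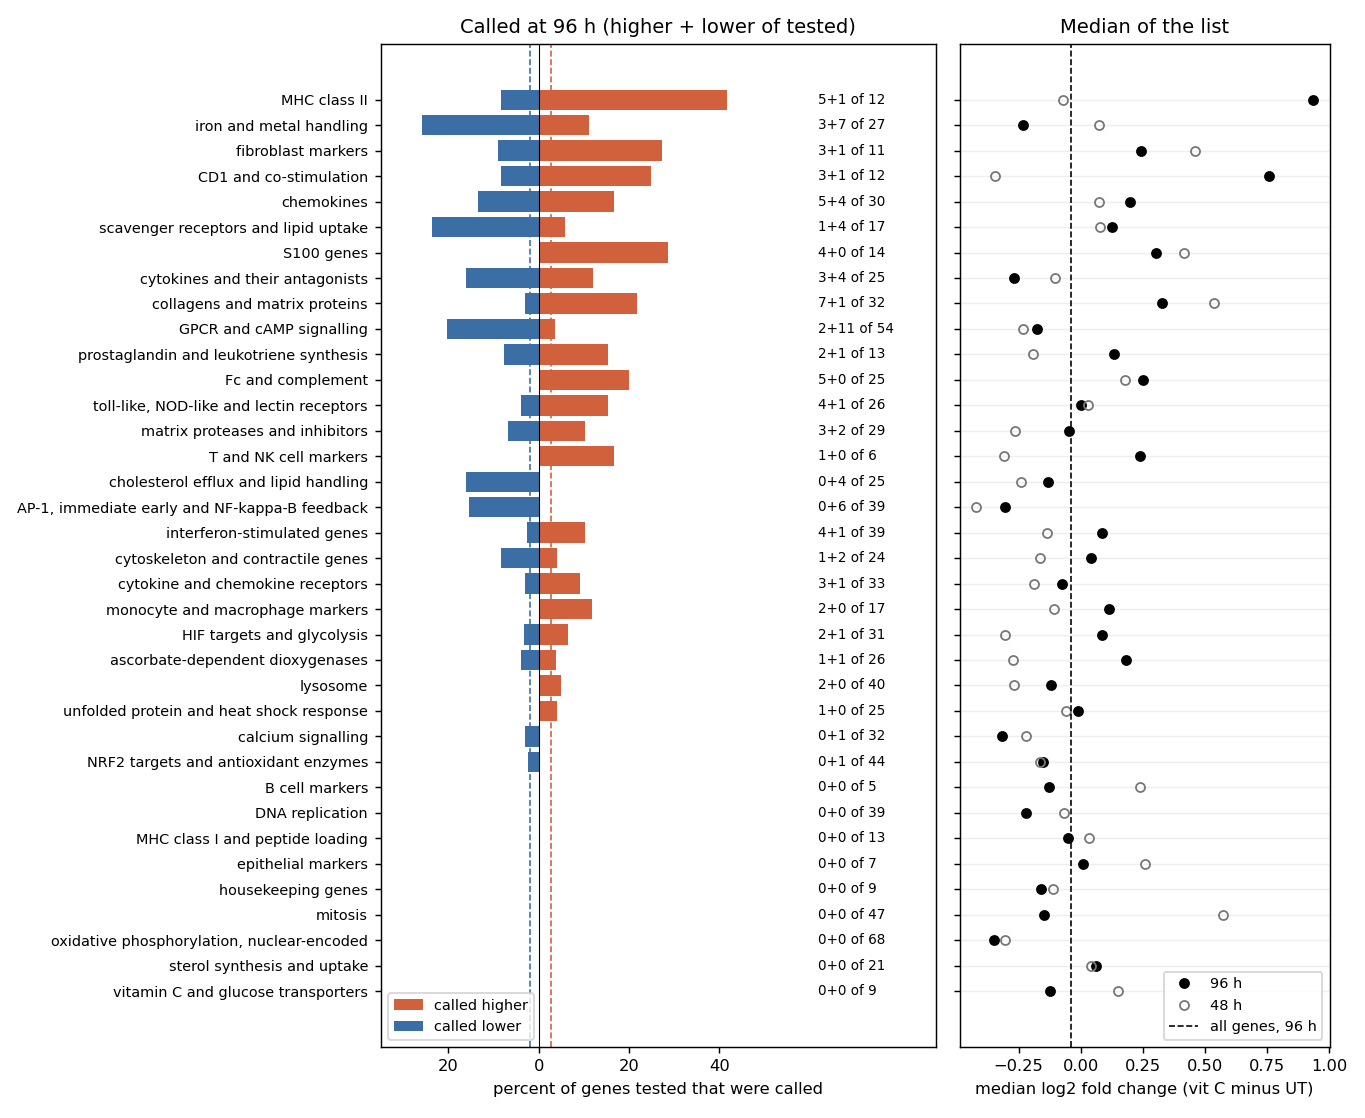
For each of 36 gene lists, the percent of genes tested that were called higher (right) or lower (left) at 96 h, with counts, and the median log2 fold change at 96 h (filled) and 48 h (open). Dashed lines show all genes tested (2.66% higher, 1.98% lower, median -0.04). MHC class II and CD1 lists have the highest medians, and the oxidative phosphorylation list the lowest with 0 called.

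None of 39 DNA replication genes was called (median -0.22) and none of 47 mitosis genes (median -0.15, against 0.57 at 48 h), but without UT replicate 3 the mitosis list had 2 higher. Nuclear-encoded oxidative phosphorylation genes had 0 of 68 called by limma, but 64 of the 68 log2 fold changes were below 0 and the median was -0.35, against -0.04 over all genes. With normexp the list median of -0.27 lay beside -0.26 over all genes, so the gap was not kept there. After quantile normalization the list median was -0.17, against 0.00020 over all genes. None of 9 vitamin C and glucose transporters was called: SLC2A1, the glucose carrier GLUT1, changed by 0.18 (q = 0.761) and SLC23A2, the vitamin C carrier SVCT2, by -0.13 (q = 0.82). Of 31 hypoxia-inducible factor (HIF) targets and glycolysis genes 2 were higher and 1 lower (median 0.09), namely ALDOC, an aldolase (1.54, q = 0.0389), BNIP3L, a mitophagy receptor (1.18, q = 0.038), and BHLHE40, a transcription factor listed as BHLHB2 (-1.01, q = 0.0463). Each of these calls held in 1 of 5 fits with an array left out. The list had 4 higher and 2 lower without UT replicate 3, 0 and 1 without UT replicate 2, 0 of either without UT replicate 1 or either vit C-treated array, and 2 and 0 with normexp. Of 44 NRF2 targets and antioxidant enzymes 1 was lower, PRDX2, a peroxiredoxin which went from 3.33, 3.42 and 3.17 to 2.24 and 2.17 (-1.10, q = 0.00166), with a median of -0.15 (2 lower without UT replicate 3). That is 2.27% of the NRF2 list, against 4.64% called over all genes.

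In the remaining lists, 2 of 40 lysosome genes were higher, which is 5% against 4.64% called over all genes (median -0.12), ACP5, tartrate-resistant acid phosphatase (1.55, limma q = 0.000913), and LGMN, legumain, a protease with no UT array well above background (at least 1.95-fold, q = 0.0311). The direction of LGMN turned with normexp (-0.08), and with signals under 20 raised to that floor its log2 fold change was 0.387 (q = 0.0738). On lysosome genes well above background on all 5 arrays 1 was higher. Without either vit C-treated array 1 was higher, and without UT replicate 3 there were 2 higher and 1 lower. Of 25 genes of the unfolded protein and heat shock response 1 was higher, the co-chaperone DNAJC3 (1.01, q = 0.0159, not called without either vit C-treated array or without UT replicate 3, where 2 others were; list median -0.01). The 1 call is 4% of the unfolded protein list, against 4.64% over all genes. Of 24 cytoskeleton and contractile genes 1 was higher, MYH11, a smooth muscle myosin (2.03, q = 0.0241), and 2 lower, the actin regulators ENAH (-1.59, q = 0.00627) and FLNA (-1.13, q = 0.00481), with a median of 0.04. The cytoskeleton counts were 1 and 4 without UT replicate 3, 0 and 1 without vit C replicate 1, 0 of either without vit C replicate 2, and 0 and 2 with normexp. ACTG2, a smooth muscle actin, was at -0.40, -0.31 and 0.02 in UT and at -0.26 and -0.44 in vit C-treated cells, which is a change of -0.12 (q = 0.743), where its effect at 48 h had been -3.93. Of 17 macrophage markers tested 2 were higher, MPEG1, the pore-forming perforin-2, from -3.96, -4.43 and -3.38 to -1.45 and -1.61 (2.39, q = 0.00108), and LYZ, lysozyme (1.17, q = 0.0479, called in 1 of 5 fits with an array left out). The list median was 0.11. With normexp 0 of the list were called: LYZ lost its call, and MPEG1 was left out because its probes went in opposite directions. Of 6 T and NK cell markers 1 was called, NCR1 (1.47, q = 0.0407), well above background on 1 of 3 UT arrays and at -0.0038 with normexp, a call held in 1 of 5 such fits. Housekeeping genes (0 of 9, median -0.16), epithelial markers (0 of 7, median 0.01) and B cell markers (0 of 5, median -0.13) held no DRG, although 1 B cell marker was lower without UT replicate 1.

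On the same probes, which were kept by the 96 h arrays alone, the 8 h comparison had 61 DRGs (0.319%), 37 higher (0.194%) and 24 lower (0.126%). The 24 h comparison had 301 (1.56%), 173 higher (0.895%) and 128 lower (0.662%), and that of 48 h had 683 (3.53%), 383 higher (1.98%) and 300 lower (1.55%), against 4.64% after 96 h. Genes well above background only at an earlier time could not be counted. The filter thus favours 96 h in these shares and in the counts that follow, which do not measure how the effect changed with time. Of the DRGs of 96 h, 701 were not called at 8, 24 or 48 h, 78 were higher at both 48 and 96 h, 95 were lower at both, and 8 were called in opposite directions. The difference between the 96 h effect and the mean of the 8, 24 and 48 h effects was itself called for 437 of 19370 genes (2.26%), 246 with a positive (1.27%) and 191 with a negative difference (0.986%), and 291 of these were DRGs of 96 h. Against the 48 h effect alone it was called for 131 of 19358 genes (0.677%), 73 positive (0.377%) and 58 negative (0.3%). The balance of signs turned with normexp, to 182 positive and 412 negative against the earlier mean and 97 and 165 against 48 h, and without UT replicate 1, to 407 and 616 and to 195 and 404. Against 48 h it also turned with an intensity trend, to 112 and 116, and at unadjusted p, to 915 and 928. FCGR3A had effects of 1.74, 2.05 and 1.84 before the 2.02 at 96 h, a difference from their mean of 0.14 (limma q = 0.76). FFAR3 also had no called difference (-0.23, q = 0.766), although its 48 h effect was -4.52, with no vit C-treated array of 48 h well above background. By contrast, in the fit, COLEC12 (3.69, q = 0.00163), IL33 (3.57, q = 0.0013), MPEG1 (2.82, q = 0.00337) and HAMP had the largest positive differences among DRGs chosen as above, and FA2H (-2.60, q = 7.52e-05), EGR2 (-2.23, q = 0.00468) and COL22A1 (-2.09, q = 0.0097), beside MT1M, the largest negative ones. FA2H had been within 2.48 and 3.57 in both groups up to 48 h, and was at 0.64 to 0.84 in UT cells at 96 h. COLEC12 was between -7.63 and -5.51 on all earlier arrays of both groups, none of them well above background, so its earlier effects and the size and rank of its difference rest on background signal. MPEG1 had no array well above background in 5 of the 6 earlier groups and IL33 in 1, the vit C group of 8 h, so their differences are no exact sizes either.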

How the data were processed

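RNA of PMA-differentiated THP-1 cells, untreated or given vit C, was labelled with Cy3 and hybridized to Agilent one-colour arrays, and per the methods 19 samples of sufficient RNA integrity were arrayed. The deposited scanner files hold processed signal intensity per probe, background-corrected by the authors with Feature Extraction 10.5.1.1 per the file headers. The deposited value table holds the authors' log2 values after a shift to the 75th percentile, and served as an alternative.

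Here log2 of the processed signal minus the 75th percentile of each array was fitted with limma 3.58.1 (R 4.3.3) to the 8 group means over all 19 arrays, with control spots left out and Benjamini-Hochberg adjustment over all probes. Vit C was compared with UT at 96 h, and this effect with those at 8, 24 and 48 h. Probes well above background throughout either group were kept, names came from the array files, the brightest probe stood for a gene, and genes whose probes opposed each other were left out. Calls needed a log2 fold change of 1 or more in size and q up to 0.05. For a gene not well above background on any array of 1 group, "at least N-fold" sets the brighter mean against the mean of, per array, the higher of its own signal and the lowest signal of a probe well above background. The number of arrays limits the precision. Figures were drawn with matplotlib 3.10.9 in Python 3.11.15.

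Named genes are the 12 largest rises and falls among DRGs measured on all 5 arrays, the 4 largest of each among those with a group below background, up to 6 DRGs of each list with its defining members, genes that the study's text names, and the 4 largest differences from the earlier times in each direction. The members, lists and tests were chosen with earlier results of these data known. Some items are not reported here. Alternatives changed the test, adjustment, background correction, scaling, filter, probe rule, slide, pairing, array weights and the arrays included. The fit to the 5 arrays of 96 h with unadjusted p was chosen after seeing the data.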

Additional observations from a re-analysis of the deposited data

Results flagged for a closer look

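The difference between the effect of vit C at 96 h and the mean of its effects at 8, 24 and 48 h passed limma's test of the difference (q of at most 0.05 and an absolute difference of at least 1) for 437 genes, and the difference from the 48 h effect alone for 131. The earlier arrays lay on other slides than the vit C-treated arrays of 96 h, and the part of the slide was not tested. All values below are log2 differences, the 96 h effect minus the mean of the earlier effects. Negative differences outnumbered positive ones with normexp (412 to 182), without UT replicate 1 (616 to 407) and without vit C replicate 1 (49 to 36).

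Among receptors and antigen presentation genes the 96 h effect was above the earlier ones for CD48 by 1.97, FCGR2B by 1.55, CD1C by 1.55, HLA-DMB by 1.44, IL6ST by 1.42, FCGR2A by 1.31 and SIGLEC7 by 1.17, and below them for CD83 by -1.30 and OLR1 by -1.50. Of cytokines, chemokines and hormones it was above for CXCL14 by 1.79 and CXCL5 by 1.70, and below for CCL17 by -1.52, CXCL13 by -1.62, IL1RN by -1.80 and PNOC by -1.93. Of iron, metal and lipid genes it was above for HAMP by 2.91 and HP by 2.28, and below for LPL by -1.29, MT1B by -1.60, MT2A by -1.82, MT1M by -3.34, SLC30A3 by -1.77 and FA2H by -2.60.

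Of matrix proteins and proteases it was above for ADAMTS4 by 2.07, VCAN by 1.33 and CTSK by 1.15, and below for MMP7 by -1.92 and COL22A1 by -2.09. Of transcription and chromatin genes it was above for IRF8 by 1.97, TET2 (listed as KIAA1546) by 1.90 and LBH by 1.66, and below for ATF3 by -1.35, FOSB by -1.44, NR4A3 by -1.58 and EGR2 by -2.23. Other named genes with a higher effect at 96 h differed as follows: BNIP3L by 1.87, ACP5 by 1.24 and DNAJC3 by 1.103. Those with a lower effect differed too: TUBA8 by -1.56, HOMER2 by -1.56, LONRF2 by -1.92, CLDN1 by -2.01 and RAB11FIP4 by -2.02. For HAMP and MT1M the effect at 96 h and each earlier effect had opposite signs.

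Some differences rest in part on signal that was not well above background on any array of 1 or more of the 8 groups, so the fitted values are no exact sizes. With 5 or 6 such groups they were 3.69 for COLEC12, 2.58 for P2RY14, 2.82 for MPEG1, 2.42 for CP, 3.58 for LUM and -3.39 for MGP. With 1 to 3 such groups they were 3.75 for CSF3, 3.57 for IL33, 2.51 for PRL, 2.36 for FGFBP2, -1.63 for LAMA3, -1.81 for PROC, -2.35 for CHRM2 and -3.19 for DIRAS2. For CHRM2 and DIRAS2 the group was the vit C-treated one of 96 h.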

How the results depend on the processing

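With 5 arrays, 2 of them treated and alone on their slide, precision is limited. There were 910 DRGs (522 higher and 388 lower), while limma on the 96 h arrays alone called 0 genes and the methods' t-test 0. At unadjusted p these called 747 higher and 458 lower, and 448 and 369. Of those genes 889 and 694 were among the 910. The count of DRGs was 545 with normexp, 2236 with dim probes kept, 1555 with array weights (0.139 for UT replicate 3) and 264 to 1667 with 1 array left out (264 without vit C replicate 1, 345 without vit C replicate 2 and 1667 without UT replicate 3). The cause of these changes was not tested. With the replicate number as a block it was 590, but only 2 pairs share a number, their deviations correlated at -0.02, and the labels do not say that a number marks a shared batch.

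The 437 differences from the earlier effects became 1724 at unadjusted p, 657 with gene means, 1162 with array weights, 226 with the replicate block and 85 to 1313 with 1 array left out (1023 without UT replicate 1, 1313 without UT replicate 3, 85 and 159 without vit C replicates 1 and 2). The 131 differences from 48 h became 1843 at unadjusted p, 228 with an intensity trend, 234 after quantile normalization, 262 with normexp, 387 with a signal floor of 20, 295 with gene means, 957 with array weights, 41 with the replicate block and 23 to 599 with 1 array left out (599 and 426 without UT replicates 1 and 3, 23 and 51 without vit C replicates 1 and 2). The 120 calls in the gene lists became 0 by the t-test and 0 on the 96 h arrays alone (102 and 127 at unadjusted p), and 55 to 149 with 1 array left out (55 and 63 without vit C replicates 1 and 2).

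Of the values of named genes under alternatives, 2863 kept direction and call, 593 lost the call, 7 gained it and 15 changed sign. The latter were ABCA1 (-0.02135 without UT replicate 2, up to 0.325 without UT replicate 1), ABCG1 (-0.01767 with the replicate block, -0.478 with array weights, and -0.238 to 0.749 with 1 array left out, with -0.08132 without UT replicate 2), PPARG (-0.0820 with array weights, and -0.0985 to 0.272 with 1 array left out) and TFRC (0.07473 after quantile normalization, 0.109 with array weights, and -0.278 to 0.198 with 1 array left out), and, with normexp, CLEC4D (-0.186), CP (-0.300), LGMN (-0.0801), MFAP5 (-0.104) and NCR1 (-0.0038). With normexp 30 calls of named genes were lost beside those that changed sign, those of APOC1, AXL, BHLHE40, CCL17, CD1A, CIITA, CLEC5A, CSF3, FAP, FCGR2A, GBP5, HLA-DRB4, IL11, IL2RG, IL6ST, IRF8, LAMA3, LIF, LUM, LYZ, MERTK, MSR1, MYH11, OLR1, PDGFRB, PTGS2, S100B, TET2, TRIM22 and XAF1, while HLA-DQB1, MPEG1, OR2AT4 and STAB1 were left out of the gene counts because their probes went in opposite directions. With a signal floor of 20 those of 22 were, ALDOC, BHLHE40, BNIP3L, CCL17, CIITA, CLEC4D, CP, DIRAS2, HLA-DRB3, HLA-DRB4, IRF8, LGMN, LIF, LYZ, MERTK, NCR1, OLR1, OR2AT4, S100A9, S100B, SMARCA1 and SNORD58A.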
